A study of Cricetiscus sungorus with 216 samples.

Results

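Immediate early genes are genes whose transcription starts within minutes of a stimulus, from regulators that are already present in the cell, and most of them encode short-lived RNAs. Neurons and endocrine cells use them as a first step that turns synaptic activity or hormone signals, through MAP kinase, SRF and CREB, into longer-lasting changes of gene expression. Fos, Fosb, Jun and Junb encode subunits of the AP-1 transcription factor, Egr1 encodes a zinc finger transcription factor, Nr4a1 encodes an orphan nuclear receptor, Arc encodes a cytoskeleton-associated protein of synapses, Dusp1 encodes a phosphatase that inactivates MAP kinases, and Ier2 encodes a nuclear protein that is induced early by growth factors. These 9 genes were followed by their gene symbol in the tables of the mediobasal hypothalamus (MBH), the dorsomedial hypothalamus (DMH), the paraventricular nucleus (PVN) and the pituitary gland. All 9 were listed in each table, out of 20156 genes in the MBH, 21821 in the DMH, 18960 in the PVN and 22482 in the pituitary gland.

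The tissues came from 54 adult male Djungarian hamsters, 3 to 8 months old and without any genetic modification. The reference group of 6 hamsters stayed in a long photoperiod (LP, 16 h of light), and 8 groups of 6 were moved from LP to a short photoperiod (SP, 8 h of light) for 4, 8, 12, 16, 20, 24, 28 or 32 weeks, the period over which this species passes into and out of its winter state. All hamsters were killed 2 to 4 h after lights on, so that the level at other times of day was not measured, and in SP the clock time of lights on was not given in the sources used here. Each of the 4 tissues of each hamster gave a nanopore cDNA library, and the replicates are separate hamsters.

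Library totals ran from 5996 to 13208361 counts in the MBH, from 149289 to 9084072 in the DMH, from 159 to 998245 in the PVN and from 29219 to 523544 in the pituitary gland. Fewer than 10000 counts were found in 1 MBH library (SP 20 weeks replicate 2) and in 2 PVN libraries (LP replicate 1 and SP 16 weeks replicate 4). Of 5 MBH markers, Agrp was read in 53, Npy in 52, Nr5a1 in 39, Kiss1 in 28 and Ghrh in 11 of 54 MBH libraries. The summed level of pituitary markers in these libraries was 763 to 2342 CPM in LP against 15.3 to 1652 in SP. Most counts of that sum were of Cga (17438), Pomc (13393) and Tshb (4145), with 326 of Gh and 486 of Prl. The study's model has Tshb of the pars tuberalis high in LP and low in SP, so the sum is no measure of pituitary carry-over alone. Their parts in it were not tested. Of the DMH markers Hcrt was read in 26, Grp in 17, Ppp1r17 in 15 and Npvf in 9 of 54 DMH libraries, so the labelled tissue was only weakly marked. In the MBH they were read in 37, 24, 49 and 39 libraries in the same order. These markers thus did not set the DMH libraries apart from those of the MBH. Of 5 PVN markers the PVN table held Trh, read in 51 libraries, and Sim1, read in 14. Pituitary markers were present in every pituitary library, at 30066 to 127612 CPM in sum. In bulk tissue, fewer cells of a type and less RNA per cell cannot be told apart.

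Counts of the members were low, and this sets what can be seen. Over 54 libraries, the counts of Jun came to 510 in the MBH, 139 in the DMH, 301 in the PVN and 7 in the pituitary gland. Fosb was the least read member, with 6, 2, 1 and 4 counts of its highest isoform in the same order. Fos, the gene most used as a mark of neuronal activity, had 30 counts in the MBH, 20 in the DMH, 18 in the PVN and 13 in the pituitary gland, and never more than 5 in a library. Nr4a1 had 11 isoform entries outside the PVN, and a read could be entered in several of them, so its summed counts of 110 in the DMH and 846 in the pituitary gland stood against 14 and 87 counts of its highest isoform. In 8 pituitary libraries all 11 entries held the same value. Arc and Fosb had 2 isoform entries there, and the other members had 1.

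Whether a member was read at all followed how many genes a library held. Spearman's rho over the 54 libraries between the counts of the 9 members (highest isoform of each) and the number of genes detected was 0.953 in the MBH, 0.879 in the DMH, 0.902 in the PVN and 0.527 in the pituitary gland, a description in which both measures share the library. In the DMH the 18 libraries with the fewest genes detected held 6 counts of the members, the 18 in the middle 47, and the 18 with the most 297. No member was read in 18 DMH libraries, 9 pituitary libraries, 4 PVN libraries and 0 MBH libraries, and the largest of the DMH libraries without them had a total of 4506788 counts. Of those 18 DMH libraries 1 was from LP and 17 were from SP. The median number of genes detected in the DMH was 11202.5 in LP and 7921 in SP. A count of 0 allows up to 3 counts in a library, for counting error only.

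**Figure D1:**
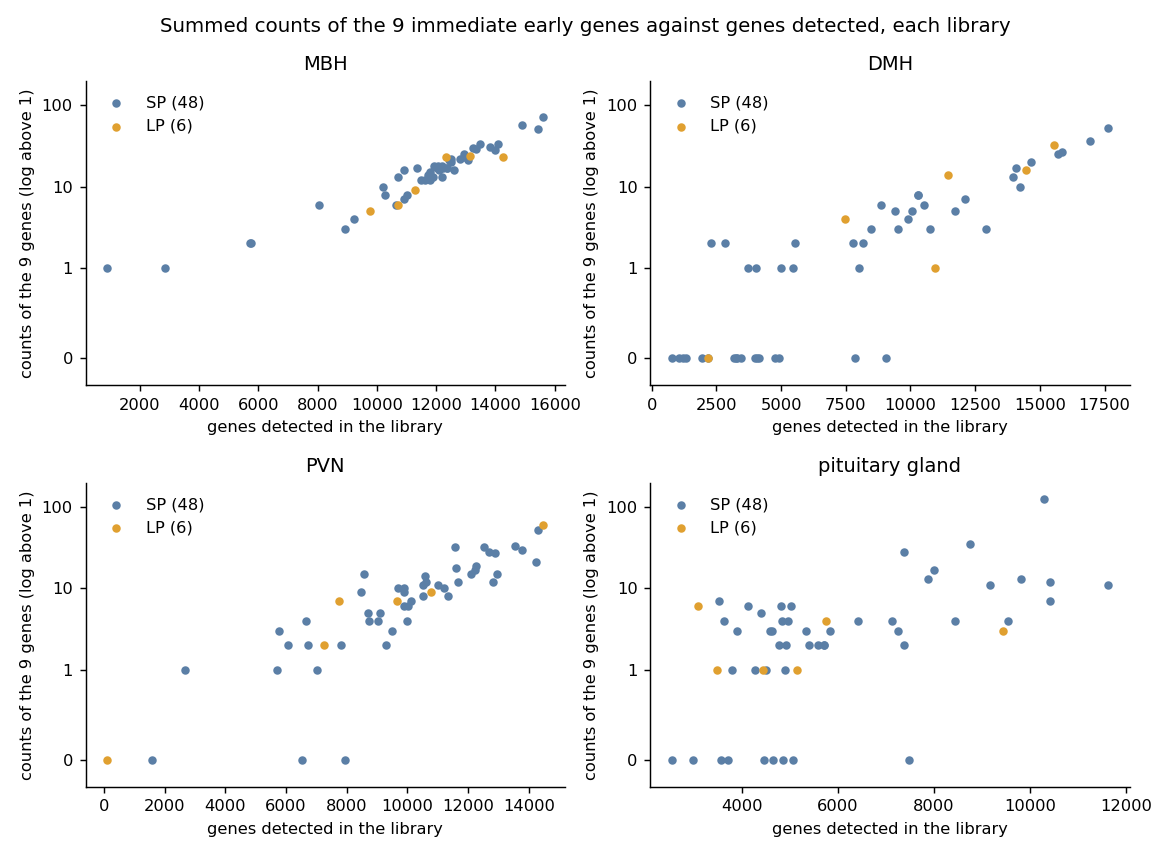
Counts of the 9 immediate early genes in each library (y axis, linear to 1 and then logarithmic; highest isoform of each gene, summed over the genes) against the number of genes detected in it (x axis), for the 4 tissues. Orange points are the 6 LP libraries and blue points the 48 SP libraries. In the MBH, DMH and PVN the points climb with the genes detected (rho 0.953, 0.879 and 0.902), and 18 DMH libraries lie at 0.

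Jun took the largest share of the members' counts in the hypothalamus and almost none in the pituitary gland. By counts of the highest isoform of each gene, Jun made up 52.4% of the members' 974 counts in the MBH and 39.7% of 350 in the DMH, but 1.82% of 384 in the pituitary gland. These are shares of counts within a table, with no correction for transcript length, and the tables were not tested against each other. There Egr1 made up 34.9%, Nr4a1 22.7% and Junb 18.2%, whereas Egr1 made up 9.75% in the MBH and 17.4% in the DMH. The contrast held library by library: Jun had more counts than Egr1 in 49 of 53 MBH libraries that held either gene and in 21 of 33 DMH libraries, while Egr1 had more than Jun in 25 of 30 pituitary libraries. Without the pituitary library that was highest in Egr1, the shares there were 28.8% for Egr1 and 2.72% for Jun. The labels name the same PCR-cDNA kit for all libraries, but the study's methods give a direct cDNA kit for the pituitary gland, so that tissue and kit cannot be told apart in this contrast. In the PVN table, which shares 0 isoform identifiers with the others and is not compared with them, Jun made up 47.1%, Dusp1 14.7% and Egr1 14.1% of 639 counts.

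The members were tested for a change over the 9 groups and for each SP week against LP with the quasi-likelihood test of edgeR, fitted over all genes of a tissue, with a false discovery rate (FDR) below 0.1. Levels are given as CPM, the counts scaled to a library total of 1000000 after TMM adjustment, as mean ± SD of 6 hamsters. In the test over the 9 groups 0 of the 9 members were called in any tissue, where the background of all genes called was 0.442% in the MBH, 4.62% in the DMH, 0.0158% in the PVN and 9.56% in the pituitary gland. At an unadjusted p below 0.05, 1 member was found in the MBH (Nr4a1), 1 in the DMH (Nr4a1), 0 in the PVN and 1 in the pituitary gland (Jun), where all genes gave 8.01%, 14.7%, 6.15% and 17.7%. DESeq2 also called 0 members in this test in each tissue. Its share of all genes called is not given here or below, so its counts of members have no background beside them. Of the 72 comparisons of a member at an SP week with LP in each tissue, 0 were called, where 0.0093% of such comparisons over all genes were called in the MBH, 0.00401% in the DMH, 0.0% in the PVN and 0.00278% in the pituitary gland. At an unadjusted p below 0.05 there were 5 in the MBH, 6 in the DMH, 2 in the PVN and 4 in the pituitary gland, where all genes gave 4.56%, 6.85%, 3.67% and 6.77%. When the groups were put in the order of their mean CPM, no neighbours in that order lay over 1 SD apart (the larger of their SDs) for any member in any tissue. Sorting makes the gaps between neighbours small, so no likeness of the groups is read from this.

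In the MBH, Jun was the best read member, in 51 of 54 libraries, and its groups overlapped throughout. In LP it ranged from 1.86 to 8.69 CPM with a median of 5.42, and its mean was 5.27 ± 2.83. The highest group mean of Jun was at SP 12 weeks, 7.01 ± 2.35 CPM, with hamsters from 4.59 to 9.95. Its lowest was at SP 32 weeks, 3.61 ± 0.968 CPM, with hamsters from 2.36 to 4.48. The LP range covered both of these means, and the F-test of Jun had an unadjusted p of 0.639 (adjusted p = 1). Averaged over the SP weeks, Jun differed from LP by a log2 fold change of −0.03 with a standard error of 0.33. The biological spread that edgeR estimated for Jun was 0.127 of the trend at its level, against a median of 0.671 over 8915 well-read genes.

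The other AP-1 subunits were sparser in the MBH. Junb was read in 35 libraries and had a mean of 1.29 ± 1.32 CPM in LP, where hamsters ran from 0 to 3.48. Its group means in SP went from 0.507 ± 0.655 at 8 weeks to 1.71 ± 1.01 at 32 weeks, with hamsters at 0 in every group. Fos was read in 26 libraries, with 5 counts in 3 LP hamsters, a mean of 0.602 ± 0.766 CPM in LP and between 0.149 ± 0.231 (SP 24 weeks) and 0.703 ± 0.782 (SP 16 weeks) in SP. Fosb was read in 6 libraries of 6 different groups, and no level can be given for it beyond that.

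Egr1 and Dusp1 had low LP means in the MBH, and single SP weeks lay above them before adjustment. Egr1 in the LP hamsters was 0, 1.06, 0, 0, 0.426 and 0.579 CPM, and at SP 32 weeks it was 0, 2.86, 3.54, 1.12, 2.69 and 1.31. A hamster at 0 was thus present in both groups, while 5 of 6 SP hamsters lay above the highest LP value. The means were 0.344 ± 0.432 and 1.92 ± 1.32 CPM, with p = 0.0238 in a 2-sided exact permutation test of 6 against 6, in which 0.00216 is the smallest p possible, and an adjusted p of 0.956 with edgeR. Dusp1 was 0, 0.796, 0, 0, 0.426 and 1.16 CPM in LP against 1.05, 0, 1.36, 2.58, 2.13 and 2.77 at SP 8 weeks. Here 4 of 6 SP hamsters lay above all LP hamsters, with means of 0.397 ± 0.493 and 1.65 ± 1.05 CPM, an exact permutation p of 0.0346 and an adjusted p of 0.968 with edgeR. Averaged over all SP weeks, Dusp1 had a log2 fold change of 1.33 with a standard error of 0.72 (edgeR adjusted p = 0.733). The SP mean of Egr1 gave 0.88 ± 0.70 as log2 fold change and standard error (edgeR adjusted p = 1). These weekly p-values stand among 72 in the tissue, and no week separated SP from LP hamsters without overlap.

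Nr4a1 had the widest spread of the members in the MBH. In LP it was 0, 2.12, 0, 1.34, 0 and 0 CPM. At SP 12 weeks the hamsters were at 0, 9.19, 15.5, 9.45, 3.76 and 0, and at SP 32 weeks at 44.8, 0, 1.18, 0, 2.39 and 0. The mean at 12 weeks, 6.32 ± 6.15 CPM, was thus carried by 4 hamsters and that at 32 weeks, 8.05 ± 18, by a single hamster. The log2 fold changes against LP were 3.09 with a standard error of 1.33 and 3.34 with 1.35 (edgeR adjusted p = 0.892 and 0.956). In counts of the highest isoform, 12 weeks of SP held 7 and LP held 2 over 6 hamsters each. The estimated spread of Nr4a1 was 4.72 of the trend. Arc was read in 16 libraries, with a mean of 0.273 ± 0.450 CPM in LP and at most 0.592 ± 0.834 (SP 16 weeks). Ier2 was read in 24 libraries, with 0.212 ± 0.252 CPM in LP and at most 0.737 ± 0.930 (SP 4 weeks). The mean of the SP weeks called 0 of the 9 members in the MBH, against a background of 0.814% of all genes, with 0 at an unadjusted p below 0.05 (7.04% of all genes) and 0 called by DESeq2.

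**Figure D2:**
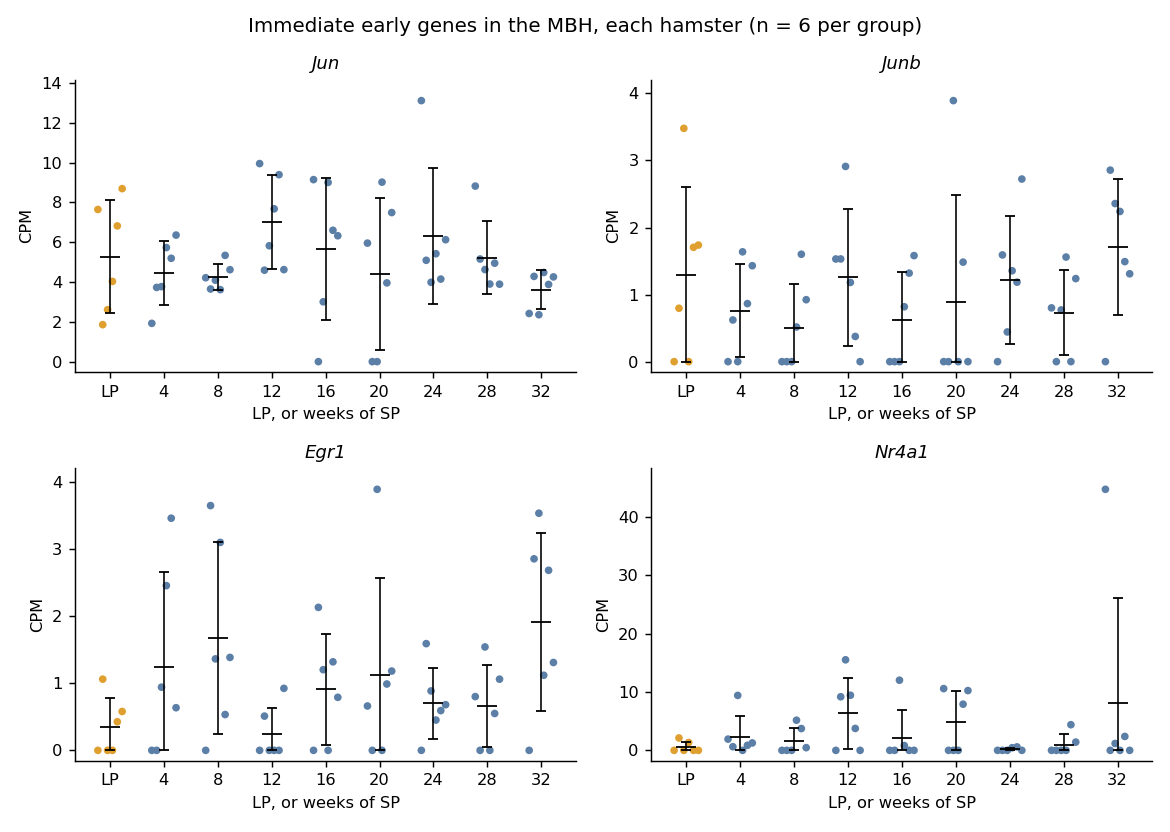
CPM (y axis, linear) of Jun, Junb, Egr1 and Nr4a1 in the MBH of each hamster, in LP (orange) and after 4 to 32 weeks of SP (blue). Points are hamsters, wide bars means and error bars the SD of 6 hamsters, drawn down to 0 at most. Jun lies above 0 in 51 of 54 hamsters with overlapping groups, and a single hamster at 44.8 CPM sets the mean of Nr4a1 at SP 32 weeks.

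The DMH was the tissue where members passed the threshold. Averaged over the 8 SP weeks, Nr4a1 and Arc were called lower than in LP by edgeR, 2 of 9 members, where 3.91% of all genes were called, 852 of the 854 in the same direction. Over all genes of the DMH the median log2 fold change was −0.28, and it was −0.87 without TMM and −0.01 with the number of genes detected as a covariate, and over the members the median was −0.83. Of the 9 members 6 had no counts in at least 1 SP week of the DMH, and their fitted fold changes depend on the prior count of the fit.

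For Nr4a1 in the DMH, the LP hamsters were at 2.39, 0, 0, 1.31, 0 and 0 CPM. Those levels rest on 22 and 18 summed counts, which are 2 and 2 counts of the highest isoform. In SP 7 of 48 hamsters had any counts, and among them were values of 3.68 CPM at 8 weeks, 2.42 at 12 weeks and 1.89 at 4 weeks. Those rest on 1, 19 and 26 summed counts. The TMM factors of the DMH libraries ran from 0.085 (SP 20 weeks replicate 2) to 7.9 (SP 12 weeks replicate 4). A high CPM can thus stand for a single count, as the 3.68 CPM did. The groups therefore overlapped, with 4 of 6 LP hamsters and 41 of 48 SP hamsters at 0. The means were 0.616 CPM in LP and 0.208 in SP (edgeR adjusted p = 0.0378 for the averaged weeks). At SP 20 and 28 weeks Nr4a1 was at 0 in all hamsters, which allows no more than 3 counts in each, against 40 summed counts (4 of the highest isoform) in LP, so no fitted fold change is given. The call was lost with the highest isoform (edgeR adjusted p = 0.376), in the edgeR 4 form (0.251), with DESeq2 (1.00), with the genes detected as a covariate (0.179) and without replicate 1 of each group (0.120). The F-test of Nr4a1 in the DMH had an unadjusted p of 0.0135 and an adjusted p of 0.169.

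Arc in the DMH was at 0.217, 0, 0, 0.290, 1.53 and 0 CPM in LP, and at 0 in 37 of 48 SP hamsters, where the highest was 0.549 CPM at 20 weeks. A single LP hamster thus lay above all SP hamsters and the other 5 overlapped with them. The means were 0.340 CPM in LP and 0.0597 in SP (edgeR adjusted p = 0.0970 for the averaged weeks), and at SP 32 weeks Arc was at 0 in all 6 hamsters. Without replicate 5 of each group, which holds that LP hamster, the call of Arc was lost (edgeR adjusted p = 0.818), as it was without replicate 4 (0.229), with the highest isoform (0.444), in the edgeR 4 form (0.545), with DESeq2 (1.00), without TMM (0.110) and with the genes detected as a covariate (0.268).

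Egr1 was more evenly read in the LP hamsters of the DMH. Its LP levels were 0.543, 0.287, 0, 0.581, 0.511 and 0.660 CPM. At SP 8 weeks 5 hamsters were at 0 and the other at 0.383, and at SP 28 weeks 4 were at 0 and the others at 0.339 and 0.0957. Both weeks overlapped with LP, where 2 hamsters lay below the highest SP hamster of each week. The means were 0.430 ± 0.245 CPM in LP against 0.0639 ± 0.156 and 0.0725 ± 0.136, with an exact permutation p of 0.0281 at each of these weeks and edgeR adjusted p of 0.527 and 0.904. These 2 were the only values below 0.05 among 72 permutation tests in the tissue. Averaged over the SP weeks, Egr1 had a log2 fold change of −1.0 with a standard error of 0.56 (edgeR adjusted p = 0.473).

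The remaining members of the DMH did not pass any test. Jun had 0.705 ± 0.612 CPM in LP and group means in SP from 0.14 ± 0.232 (20 weeks) to 0.662 ± 0.608 (12 weeks), with a log2 fold change of the averaged weeks of −0.83 and a standard error of 0.54 (edgeR adjusted p = 0.560). Dusp1 had 0.226 ± 0.286 CPM in LP and at most 0.493 ± 0.570 in SP (32 weeks). Fos was read in 9, Junb in 15, Ier2 in 13 and Fosb in 2 of 54 libraries, and each was at 0 in all 6 hamsters of at least 1 SP group. The markers of neurons in the DMH had a median summed level of 606 CPM in LP and 286 in SP, and those of oligodendrocytes 604 and 322, and the part of these and of the genes detected in the lower SP values of the members was not tested, apart from the covariate above.

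**Figure D3:**
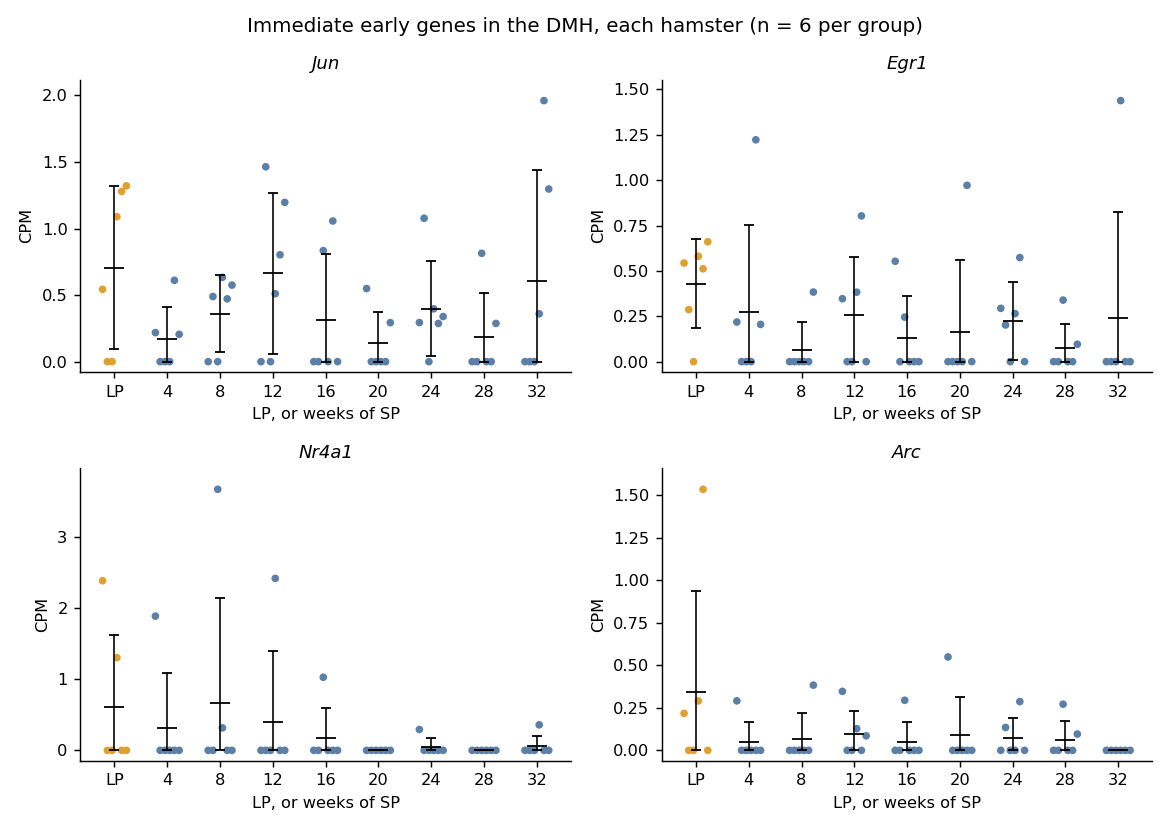
CPM (y axis, linear) of Jun, Egr1, Nr4a1 and Arc in the DMH of each hamster, in LP (orange) and after 4 to 32 weeks of SP (blue). Points are hamsters, wide bars means and error bars the SD of 6 hamsters, drawn down to 0 at most. Most hamsters lie at 0 for Nr4a1 and Arc, and the LP mean of Arc rests largely on a hamster at 1.53 CPM.

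In the PVN, Jun was read in 44, Dusp1 in 39, Egr1 in 35 and Ier2 in 28 of 54 libraries, and no member was called in any test. Jun was at 16.4 ± 17.1 CPM in LP, with hamsters from 0 to 38.4, and its SP means ran from 11.2 ± 16.9 at 16 weeks to 31.9 ± 15.2 at 4 weeks. Its LP range covered every SP mean. Egr1 was at 0, 9.81, 12.4, 11.2, 14.2 and 13.8 CPM in LP, and the hamster at 0 is the library with 159 counts. At SP 8 weeks 4 hamsters were at 0 and the others at 8.69 and 7.59, so the groups overlapped through the LP hamster at 0, while the other 5 LP hamsters lay above. The means were 10.2 ± 5.27 and 2.71 ± 4.22 CPM with an exact permutation p of 0.0260 and an edgeR adjusted p of 1, and the LP values above 0 rest on 1 to 10 counts each. That permutation p was the smallest of 72 in the tissue and the only 1 below 0.05. At SP 28 weeks Egr1 was at 13.2 ± 12.7 CPM and at 4 weeks at 13.7 ± 19, both above the LP mean by less than 1 SD.

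Dusp1 in the PVN was at 8.26 ± 7.94 CPM in LP and between 2.19 ± 4.24 (16 weeks) and 12.5 ± 8.09 (32 weeks) in SP. Ier2 was at 7.38 ± 8.32 CPM in LP and between 2.27 ± 4.26 (12 weeks) and 9.05 ± 16.3 (28 weeks). Junb was read in 19, Nr4a1 in 17, Fos in 13, Arc in 11 and Fosb in 1 library. Arc was at 0 in all 6 LP hamsters and was read in 11 of 48 SP hamsters with at most 2 counts each, and its edgeR adjusted p was 0.919 or more at every week. The mean of the SP weeks called 0 of 9 members, with 0.0211% of all genes called, 0 members at an unadjusted p below 0.05 (5.26% of all genes) and 0 called by DESeq2.

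In the pituitary gland the members that were read were Nr4a1 (29 of 54 libraries), Junb (28), Egr1 (26), Ier2 (16), Dusp1 (14) and Fos (11), and Jun, Arc and Fosb were read in 6, 6 and 4. In LP, Egr1 had a lowest value of 0, a median of 0 and a highest of 66.0 CPM, with a mean of 16.1 ± 27.3. Its SP means ran from 3.69 ± 9.04 at 8 weeks to 47.1 ± 102 at 16 weeks. The SDs exceed the means in all 9 groups, and the F-test of Egr1 gave an edgeR adjusted p of 0.796. Nr4a1 was at 41.8 ± 65.4 CPM in LP, with 4 of 6 hamsters at 0, and between 20.8 ± 28.0 (20 weeks) and 195 ± 388 (16 weeks) in SP. Its F-test had an adjusted p of 0.931 in the edgeR 3 form used throughout, but 0.00780 in the edgeR 4 form, where 10.7% of all genes were called, and 1 with DESeq2. In the edgeR 4 form Nr4a1 was the only member called, also without the library that was highest in it (edgeR adjusted p = 0.0153). With the highest isoform of each gene, the F-test called Egr1 and Dusp1 (edgeR adjusted p = 1.55e-05 and 0.0984), where 0.142% of all genes were called, and it called 0 members without that library.

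Junb in the pituitary gland was at 8.33 ± 9.62 CPM in LP and between 5.31 ± 6.76 (20 weeks) and 18.6 ± 36.8 (16 weeks) in SP. Dusp1 was at 0 in all 6 LP hamsters, which allows at most 3 counts in each, and it was read in 14 of 48 SP hamsters. The means in SP were highest at 16 weeks, 14 ± 23 CPM, where the hamsters had a median of 6.04 and a highest value of 59.3. The mean of the SP weeks gave an unadjusted p of 0.0443 and an edgeR adjusted p of 0.506 for Dusp1, and 0 of 9 members were called where 1.36% of all genes were, with 1 member at an unadjusted p below 0.05 (9.39% of all genes) and 0 called by DESeq2. Jun was at 0 in LP and in 5 of the 8 SP groups, and was read in 3 hamsters at 20 weeks, 2 at 32 weeks and 1 at 8 weeks. The summed level of neuron markers in the pituitary gland had a median of 197 CPM in LP (30.7 to 801) and 733 in SP (53.8 to 2083), and its part in the levels of the members was not tested.

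A single pituitary library stood apart in the members. SP 16 weeks replicate 2 held 60 of the 134 counts of Egr1, 44.8%, while it held 5.37% of all counts of the tissue. Its level of Egr1 was 254 CPM, with 82.7 as the next highest of 54. It was also the highest of 54 in Nr4a1 (982 CPM, next 815), Junb (93.1, next 49.6), Dusp1 (59.3, next 41.3) and Ier2 (25.4, next 22), so 5 members peaked in the same pituitary gland. The share of all genes that peaked in this library is not given here, so no common response of the members is read from this. Fos had 2 counts there, and Jun, Arc and Fosb had 0. In the MBH of that hamster Dusp1 had 3 counts and Fos, Egr1 and Arc had 1 each, and in its DMH all 9 members were at 0. In its PVN Jun had 17 counts, Junb 4, Egr1 3, Ier2 2 and Dusp1 1. In that library neuron markers summed to 1566 CPM, the third highest of 54, and pituitary markers to 117687, the fourth highest. What part either had in its levels of the members was not tested.

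The hamsters numbered 2, with the SP 16 weeks library included, were often high in the pituitary gland. Over the 9 groups, Egr1 was at 55.8 ± 79.2 CPM in the hamsters numbered 2 against 9.54 ± 15.9 in the other 45, and Nr4a1 at 301 ± 349 against 71.4 ± 112.6. Both means of the hamsters numbered 2 hold the library described above. The hamster numbered 2 was the highest of its group for Egr1, Nr4a1 and Dusp1 in 5 of 9 groups each and for Junb in 3. SP 16 weeks is among these groups for each of the 4 genes. The libraries numbered 2 had totals of 113460 to 523544 counts with a median of 230630, against a median of 74079 in the other 45, and a median of 8754 genes detected against 4855. Their neuron markers had a median of 909 CPM against 679. What part these had in the levels was not tested. Those libraries are given as a description, because nothing in the labels says what the number stands for.

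**Figure D4:**
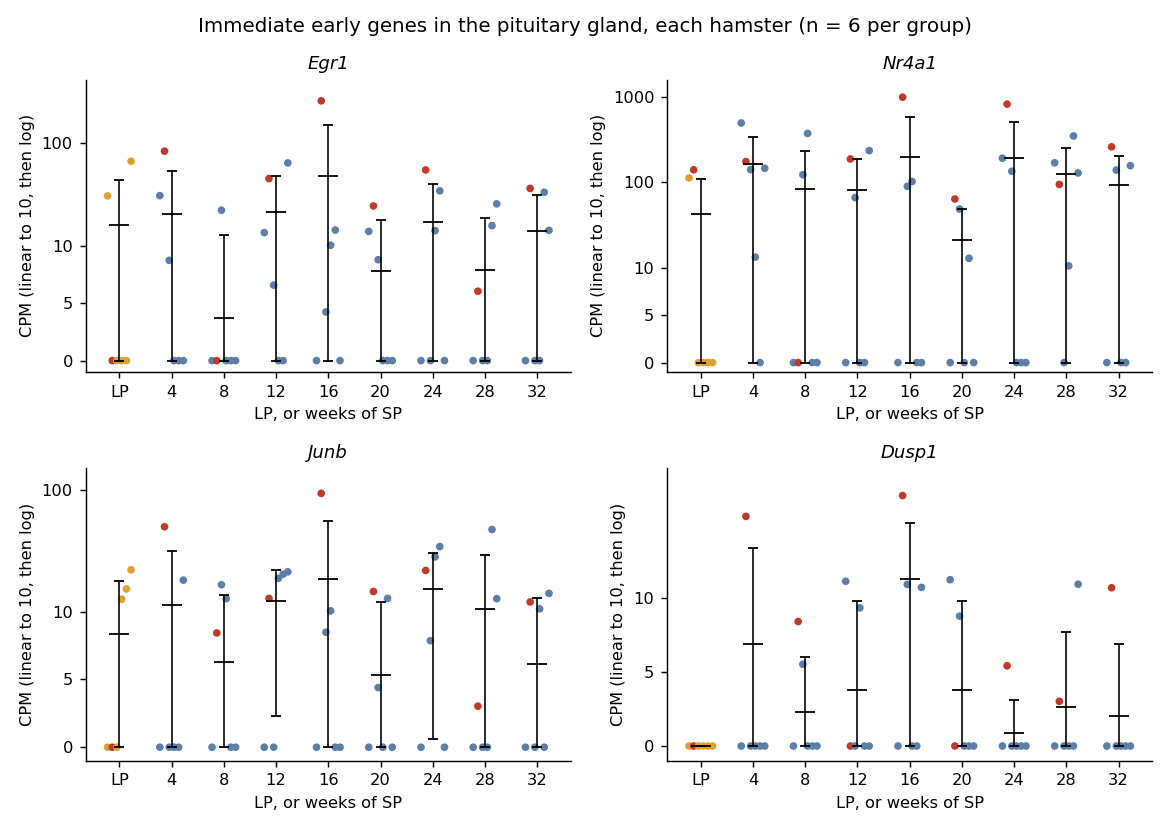
CPM (y axis, linear to 10 and then logarithmic) of Egr1, Nr4a1, Junb and Dusp1 in the pituitary gland of each hamster, in LP (orange) and after 4 to 32 weeks of SP (blue), with replicate 2 of each group in red. Points are hamsters, wide bars means and error bars the SD of 6 hamsters, drawn down to 0 at most. Replicate 2 at SP 16 weeks is the highest point in each panel, at 254 CPM for Egr1 and 982 for Nr4a1.

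Whether the members moved together was asked over hamsters, from the deviations of log2 CPM from the group means, for members read in at least 18 of 54 libraries. This gave 21 pairs in the MBH, 3 in the DMH, 10 in the PVN and 3 in the pituitary gland, each tested with 100000 permutations within groups and adjusted over the 37 pairs (Benjamini-Hochberg). Of these, 2 pairs were called, both in the pituitary gland. Egr1 and Junb had a Pearson r of 0.63 and a Spearman rho of 0.45 (permutation p = 0.00018 and 0.00314, adjusted p for r = 0.00666). Egr1 and Nr4a1 had an r of 0.52 and a rho of 0.47 (permutation p = 0.00059 and 0.00190, adjusted p for r = 0.0109). Without the 2 libraries farthest from the median of the first gene of each pair, r was 0.45 and 0.44.

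The relation was weaker without the library that stood apart and without replicate 2 as a whole. Without that library, r for Egr1 and Junb was 0.49 (permutation adjusted p = 0.0603) and r for Egr1 and Nr4a1 was 0.42 (permutation adjusted p = 0.101), so 1 of the pairs was still called. Without the 9 hamsters numbered 2, r was 0.33 and 0.32 and neither pair was called (permutation adjusted p = 0.395 for both). Junb and Nr4a1 had an r of 0.39 (permutation p = 0.0129, adjusted p = 0.159), and this pair was called with the highest isoform (permutation adjusted p = 0.0836) and when group means were not removed (permutation adjusted p = 0.0432).

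In the hypothalamus no pair passed the threshold. In the MBH r ran from −0.38 for Jun and Dusp1 to 0.34 for Junb and Egr1, with a median over the 21 pairs of −0.04, against a median of 0.30 over all pairs of 8915 well-read genes. Fos and Nr4a1 had an r of 0.32 (permutation p = 0.0317, adjusted p = 0.235), and Junb and Egr1 a permutation p of 0.0197 (adjusted p = 0.182). For Jun and Dusp1, r was −0.06 without the 2 libraries farthest from the median of Jun, and in the shallowest MBH library Dusp1 had 1 count and Jun had 0. The median over pairs was 0.23 in the DMH and 0.09 in the PVN, where all pairs of well-read genes had 0.37 and 0.36. It was 0.52 in the pituitary gland, against 0.16 over all pairs there, a description in which the pairs share libraries and genes. Of the members in these pairs only Jun and Nr4a1 in the MBH and Nr4a1 in the pituitary gland were among the well-read genes. The medians therefore compare genes of unlike counts, and no lesser or greater coordination of the members is read from them.

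**Figure D5:**
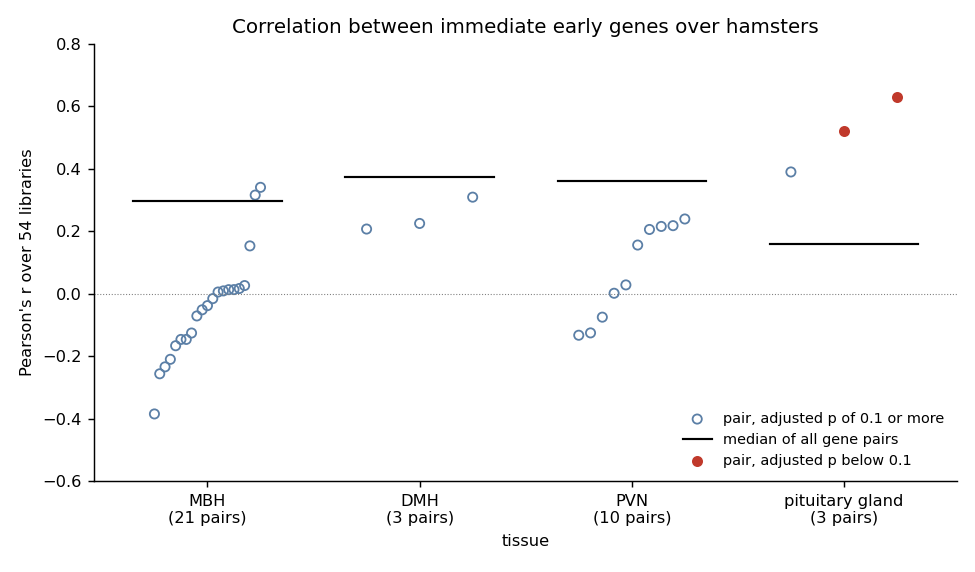
Pearson's r between pairs of immediate early genes over 54 libraries (y axis), after group means were removed, in each tissue. Circles are pairs, filled red where the adjusted p is below 0.1, and black lines are the median r over all pairs of well-read genes in the tissue. Most members are not among those well-read genes, so circles and lines are of genes with unlike counts. The 3 pituitary pairs lie above that line, between 0.39 and 0.63, and 2 of them are filled, while most hypothalamic pairs lie below the line of their tissue.

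A hamster with a high level in a tissue was not found to be high in another. For members read in at least 18 libraries of both tissues, 17 relations could be computed, and r ran from −0.21 for Egr1 in the DMH and the pituitary gland to 0.18 for Jun in the MBH and the DMH. None was called, with the smallest adjusted p at 0.739 (permutation), and 0 of 17 had an unadjusted p below 0.05. For Egr1, the only member with all 6 relations, r was 0.01 between MBH and DMH, −0.01 between MBH and PVN and 0.14 between MBH and pituitary gland, with unadjusted permutation p of 0.928, 0.956 and 0.326. It was −0.21 between DMH and PVN, −0.21 between DMH and pituitary gland and −0.04 between PVN and pituitary gland, with unadjusted permutation p of 0.189, 0.149 and 0.827.

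Genes of the same response were read from 3 lists. Their calls are given from the edgeR 3 form with summed isoforms only. Of 44 other immediate early genes, 43 were in the MBH table, 41 in the DMH, 40 in the PVN and 42 in the pituitary gland. The F-test called 0 in the MBH, 3 in the DMH (Homer1, Cebpb and Plk3), 0 in the PVN and 3 in the pituitary gland (Sgk1, Maff and Homer1), shares to be read beside the backgrounds of 0.442%, 4.62%, 0.0158% and 9.56% above. Homer1, which encodes a scaffold protein of synapses, was at 0.181 ± 0.289 CPM in LP and 1.67 ± 5.45 over the SP hamsters of the DMH, with an edgeR adjusted p of 0.0397 in the F-test and of 1 for the averaged SP weeks against LP. Cebpb, a bZIP transcription factor, and Plk3, a polo-like kinase, were at 0 in LP in the DMH and were read in 3 and 6 of 54 libraries. There the highest isoform held 31 of 147 summed counts of Homer1, 2 of 8 of Cebpb and 6 of 14 of Plk3. In the pituitary gland Sgk1, a kinase induced by glucocorticoids and serum, was at 2.49 ± 4.22 CPM in LP and 9.99 ± 23.5 in SP, with an edgeR adjusted p of 0.0155 in the F-test and of 1 for the averaged weeks. Maff and Homer1 were at 0 in LP and read in 4 and 8 libraries. The highest isoform held 17 of 65 summed counts of Sgk1 there, 5 of 26 of Maff and 5 of 18 of Homer1. With the highest isoform of each gene, 0.142% of all genes passed the pituitary F-test, and its result for these 3 genes is not given here. In the MBH the smallest F-test p-values of the list were those of Egr2, Egr4 and Klf10 (edgeR adjusted p = 0.255, 0.611 and 0.615), and in the PVN those of Ccn2, Ier5l and Nr4a2 (0.581, 0.794 and 0.796).

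The averaged SP weeks called 4 of the 41 in the DMH, all lower in SP, where 3.9% of all genes were called lower. They were Egr2 and Egr3, relatives of Egr1, Nr4a3, a relative of Nr4a1, and Ptgs2, the inducible cyclooxygenase. The alternatives that lost the DMH calls of Nr4a1 and Arc are not given for these genes. Egr2 was at 0.442 ± 0.634 CPM in LP and 0.0886 ± 0.263 in SP (edgeR adjusted p = 0.0193), and Egr3 at 0.441 ± 0.960 and 0.0666 ± 0.248 (edgeR adjusted p = 0.00742). Nr4a3 was read in 6 and Ptgs2 in 4 of 54 libraries (edgeR adjusted p = 0.0146 and 0.00908). The median log2 fold change of the list was −0.49, against −0.28 over all genes. In the MBH, the PVN and the pituitary gland the averaged weeks called 0 of this list, with 8, 3 and 4 genes at an unadjusted p below 0.05, where 7.04%, 5.26% and 9.39% of all genes passed.

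Of 26 upstream regulators, the F-test called 3 in the pituitary gland, where 9.56% of all genes were called, and 0 in the other tissues. They were Elk3, an SRF cofactor, Mapk14, the p38 kinase, and Rps6ka1, a kinase downstream of ERK (edgeR adjusted p = 0.0577, 0.0155 and 0.0325). With the highest isoform of each gene that share of all genes was 0.142%, and pituitary results with it are not given for the genes of this paragraph. The averaged SP weeks called Mapk14 and Srf lower in the DMH (edgeR adjusted p = 0.0590 and 0.0202), 2 of 26 where 3.9% of all genes were called lower. There Srf was at 0.411 ± 0.735 CPM in LP and 0.102 ± 0.284 in SP. The alternatives that lost the DMH calls of Nr4a1 and Arc are not given for Mapk14 and Srf either. In the other tissues 0 were called. Of 17 later activity-regulated genes, the F-test called the neurotrophin Bdnf and the enkephalin precursor Penk in the pituitary gland (edgeR adjusted p = 0.00271 and 0.0823), 2 of the 15 in that table beside the same 9.56%, and 0 elsewhere. The averaged SP weeks called 1 of these in the MBH, Inhba, an inhibin and activin subunit, which was at 0.186 ± 0.343 CPM in LP and 3.68 ± 3.83 in SP (edgeR adjusted p = 0.0694), where 0.814% of all genes were called, and 0 in the other tissues. Penk rested on 28 counts in 12 libraries and Inhba on 330 in 38.

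The genes whose deviations over hamsters were most like the mean of the members were given as a description, among well-read genes. They were Chst12, Riox2, Rassf4, Kcnj16 and Doc2a in the MBH (r of 0.69 for Chst12, 7 members), Smc1a, Arhgef4, Smarcc2, Map3k10 and Apbb1 in the DMH (0.79 for Smc1a, 3 members), Eci2, Acbd4, Nbea, Sat1 and Lsm12 in the PVN (0.66 for Eci2, 5 members) and Gm9354, Rps27a, Rps27a-ps2, Birc6 and Pcnt in the pituitary gland (0.56 for Gm9354, 3 members), over 54 libraries each. The members' mean itself had an r with the number of genes detected of 0.48, 0.70, 0.55 and 0.32 in the 4 tissues, and the libraries are shared by both sides of each of these values. Gm9354, Rps27a and Rps27a-ps2 are near-identical copies, between which reads may be split.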

How the data were processed

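Hamsters, groups and libraries were taken from the GEO labels, and each column of the 4 tables was matched to its library by the sample number in the labels, with 0 columns left unmapped. The deposited values are estimated counts (expected counts per isoform, which the authors made with Salmon from nanopore reads, without normalization), and 97.6% to 99.6% of the nonzero values lay within 1e-06 of a whole number. Per the labels and the study's methods, reads were aligned with minimap2 to the mouse genome and named by mouse annotation, so hamster transcripts that differ from mouse may be undercounted. For the PVN table the annotation was not given in the sources used here, so its values were compared with no other table. The number of reads behind a library is known only as the sum of its estimated counts.

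Isoforms with the same gene symbol were added up and their estimated counts rounded. A read that matches several isoforms can enter that sum more than 1 time. All genes of a tissue were fitted with glmQLFit of edgeR 4.0.16 in the edgeR 3 form (R 4.3.3) with TMM and 9 groups, and p-values were adjusted (Benjamini-Hochberg) over all genes with an FDR below 0.1. The F-test over the 9 groups, each SP week against LP and the mean of the SP weeks against LP were computed. Where LP or any SP week of a contrast had no counts, no standard error is given. Single weeks were also compared by an exact permutation test (2-sided) on mean CPM. Correlations used log2 CPM with a prior count of 2, in Python 3.11.15 with numpy 2.4.6. Alternatives were DESeq2 1.42.0, its size factors, library totals without TMM, filterByExpr, the highest isoform, the edgeR 4 form, a replicate block, a prior count of 0.5, an FDR below 0.05, and leaving out genes, libraries or replicates. The genes detected as a covariate and the pituitary library left out were chosen after seeing the data. The fit was tried on simulated MBH counts with a single dispersion, in which known changes were placed in well-read genes only. The correlation test was tried on simulated normally distributed values. Recovery of a change or relation in sparsely read members was thus not tried.

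The members and gene lists were chosen with earlier results of these data known. All 9 members were described in every tissue, and of the lists every gene with an F-test FDR below 0.1 and the 3 other immediate early genes with the smallest F-test p in a tissue were named, with the 5 genes most like the members' mean. Genes called by the mean of the SP weeks were named after their values were seen. No sequences are shown.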

Additional observations from a re-analysis of the deposited data

Results flagged for a closer look

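In 74 groups of 6 hamsters with at least 4 hamsters above 0 for a member, 6 held a hamster whose gap to the nearest of the others was, as a share of the group's range, over the 95% critical value of Dixon's test, where chance gives about 1 in 20 groups. The 71 groups with a single hamster above 0 were not examined in this way.

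In the pituitary gland at SP 16 weeks, replicate 2 was at 254 CPM for Egr1 from 60 counts, while the other hamsters of the group lay between 0 and 14.2 CPM. In the MBH, Jun was at 13.1 CPM in replicate 1 of SP 24 weeks, from 1 count, with the others between 3.99 and 6.13, and at 8.82 CPM in replicate 1 of SP 28 weeks, from 11 counts, with the others between 3.89 and 5.15. Dusp1 was at 37.5 CPM in replicate 2 of SP 20 weeks in the MBH, from 1 count in the library of 5996 counts, with the others between 0 and 1.98. In the PVN, Egr1 was at 0 in replicate 1 of LP, the library of 159 counts, with the others between 9.81 and 14.2, and at 2.96 CPM in replicate 2 of SP 20 weeks, from 1 count, with the others between 6.80 and 9.54. Of these 6 values, 4 rest on 0 or 1 count.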

How the results depend on the processing

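Under every alternative run, 0 members were called at a single SP week in any tissue, 0 by any test of photoperiod in the MBH and PVN, and 0 of the relations between tissues. In the DMH the test over the 9 groups called 1 member without TMM (Nr4a1, edgeR adjusted p = 0.0339). The 2 members called lower in SP there became 1 without TMM and at an FDR below 0.05, 0 with the highest isoform, 0 in the edgeR 4 form, 0 with DESeq2, 0 with the replicate block (adjusted p of 0.150 for Nr4a1 and 0.185 for Arc), 0 with the genes detected as a covariate, and 1 to 2 when a replicate number was left out in turn. In the pituitary gland the test over the 9 groups called 2 members with the highest isoform, 1 in the edgeR 4 form and 1 with the replicate block (Nr4a1, adjusted p = 0.00910), and without SP 16 weeks replicate 2 these were 0, 1 and 1. For an alternative whose share of all genes is not given above, a count of members has no background to be read against.

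Pairs of members called in the MBH were 0, but 2 when group means were not removed and 1 with the genes detected removed, and 0 to 2 when a replicate number was left out. In the DMH they were 0, but 1 when group means were not removed and 0 to 1 when a replicate number was left out, and in the PVN 0 to 1. In the pituitary gland 2 pairs became 1 without SP 16 weeks replicate 2 and 0 to 3 when a replicate number was left out, and 3 with the replicate block, with the highest isoform and when group means were not removed. The cause was not tested. Among results that were not called, the sign changed at least once in 18 of 34 fold changes, 16 of 35 pairs and 10 of 17 relations between tissues, so no direction is read from them.

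Whether the replicate numbers of the labels pair the hamsters was not settled by the data. The lowest correlation of same-numbered libraries was below 0.1 in each tissue, but a lowest value over many pairs can be low in any case. Of 54 libraries, 28 (MBH), 24 (DMH), 28 (PVN) and 41 (pituitary gland) correlated best with their own of the 6 numbers. This is a hint from the data and not from the design. After filterByExpr, Jun and Nr4a1 in the MBH and Nr4a1 in the pituitary gland were the only members left to test. Apart from Jun in the MBH, each member had at most 3 counts of its highest isoform in most libraries of a tissue, so that small differences were not detectable at this depth.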

Other observations

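The spread between hamsters that edgeR estimated differed among the members. In the MBH it was below the trend for Fos, Jun, Junb, Egr1, Dusp1 and Ier2 (ratios of 0.0482 to 0.195) and above it for Nr4a1 (4.72), Arc (2.56) and Fosb (1.10), the 3 members with several isoform entries. In the DMH Nr4a1 was also highest at 6.05, with Arc at 0.777, and in the pituitary gland Nr4a1 was at 3.74, Arc at 2.66 and Fosb at 0.446. In the PVN table, where each member has 1 isoform entry, Nr4a1 was at 0.160 and Arc at 0.836. Members with 1 isoform entry were also above the trend, Egr1 (1.72) and Dusp1 (1.2) in the pituitary gland and Egr1 (1.16) and Jun (1.01) in the PVN.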
